A study of Mus musculus with 4 samples.

Results

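The Hox genes are the 39 homeobox genes that lie in 4 clusters, Hoxa, Hoxb, Hoxc and Hoxd, and they were read here in 4 primary mouse neuroblastomas. Members were all genes whose symbol is Hox, a cluster letter and a number, and which had a probe set on the array listed with that gene alone. This gave 36 of the 22180 genes measured. Hoxa11 and Hoxd4 appear only in probe sets listed with a second gene. The Hoxa cluster had 9 members, Hoxb 10, Hoxc 9 and Hoxd 8.

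The 4 tumours form 1 group, and each is 1 sample of total RNA on a 1-colour Affymetrix array. All carry mutant Alk (the allele is not named), the TH-MYCN transgene and the Stat6-/- genotype on a mixed background of C57BL\6 and 129Sv/J. The transgene drives MYCN, the oncogene of aggressive neuroblastoma, from the tyrosine hydroxylase promoter, which is active in sympathetic cells, and Stat6 is the transcription factor of IL-4 and IL-13 signalling. The labels name the sternocleidomastoid muscle as tissue and do not say how the tumour was dissected or whether each came from its own animal. There is no contrast between conditions, so no p-value is given, and the spread over tumours may be biological or technical.

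Hox proteins are DNA-binding factors that tell cells along the head-to-tail axis where they are. Genes at the 3′ end of a cluster (low paralogue numbers) are switched on early and far forward, in the hindbrain and neck, and genes at the 5′ end (high numbers) late and towards the tail, and paralogues are the members of the 4 clusters that hold the same place. The combination of Hox genes that a cell keeps expressing is called its axial code. Sympathetic neurons and neuroblastoma descend from neural crest of the trunk, behind the foremost head crest, which lacks Hox expression, and fibroblasts and muscle of each body region keep Hox codes of their own.

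Values are RMA values on a scale treated as log2, so a difference of 1 is 2-fold. The arrays came without detection calls, so a floor was taken from 1394 receptor genes of smell and pheromone sensing, for which no role in this tissue is known. The floor, 6.17, is the 95th percentile of their 4-tumour means, and genes with a higher mean were called detected. For a gene with a mean below the floor, expression could not be judged. Brightness differs from one probe set to the next, so each gene was set against the floor or against itself in other tumours, never against another gene.

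The sympathetic lineage was seen on the arrays. All 15 measured members of a list of sympathetic markers were detected, among them Isl1, a factor of neuronal differentiation (10.39 ± 0.08), and Gata3, a factor of the sympathetic lineage (8.05 ± 0.04, SD, n = 4). Of the skeletal muscle markers 0 of 15 were detected, so muscle, the labelled tissue, was not seen above the floor. Stat6 measured 5.83, 5.92, 5.75 and 5.80 in tumours 1 to 4, below the floor, and the part of the gene its probe set reads is unknown. Tumour 4 stood apart in Xist (10.13 there and 3.89 to 3.95 in the others) and in the Y-linked Eif2s3y (3.90 there and 7.47 to 7.89), so anything particular to it cannot be told apart from sex. The floors of the single arrays were 5.91, 6.14, 6.37 and 6.43 in tumours 1 to 4.

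Few Hox genes were detected. Of the 36 members, 4 had a mean above the floor (11.1%), where 40.5% of all genes measured did. These were Hoxc4 and Hoxc6 of the Hoxc cluster and Hoxd8 and Hoxd10 of the Hoxd cluster. Other homeobox genes, taken from 138 members of families outside the clusters, had 25 detected (18.1%). The 32 other Hox genes had means from 3.81 to 5.97, and 2 of the 36 lay below the receptor median of 4.01.

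**Figure D1:**
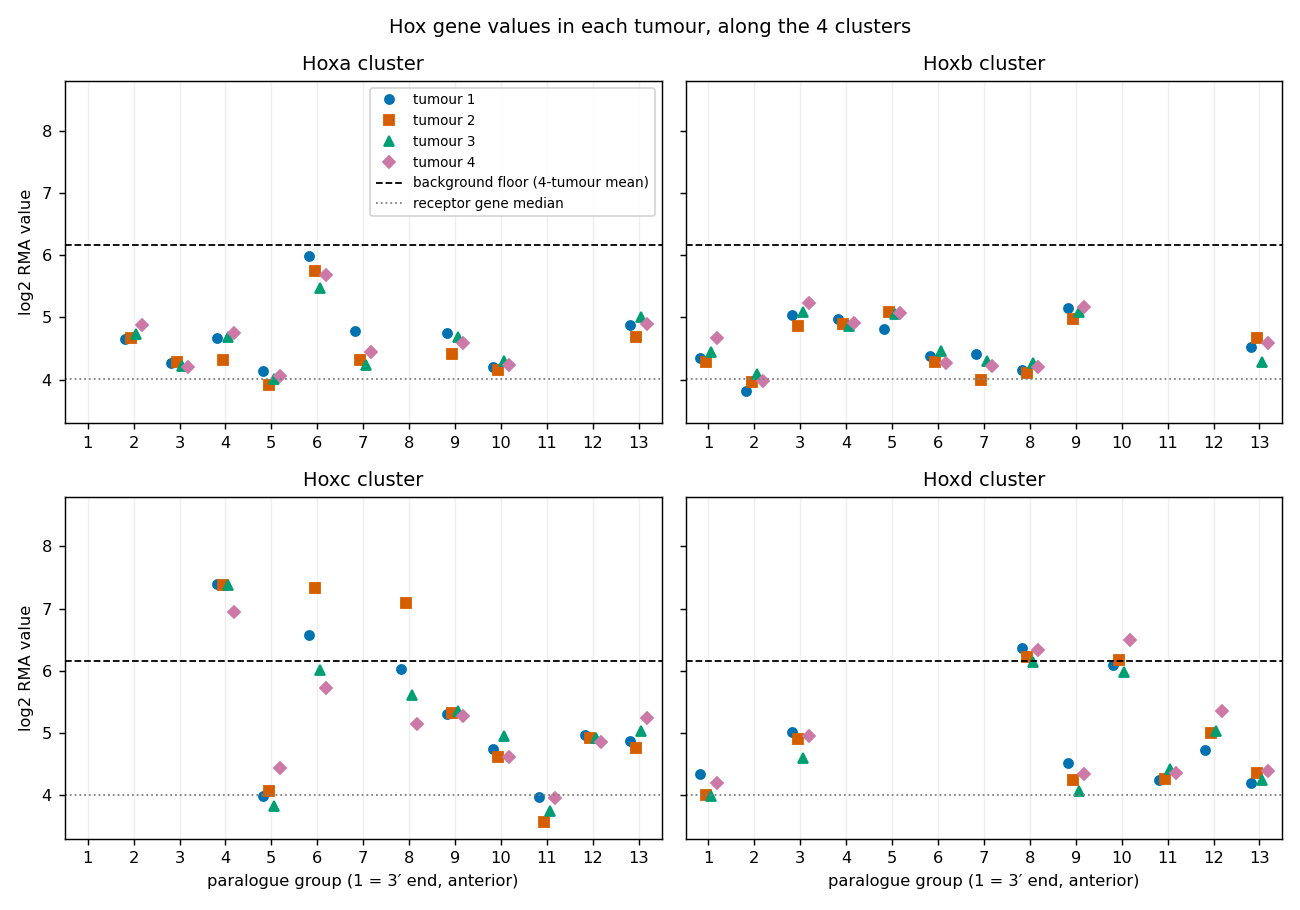
Log2 RMA value of each Hox gene in each of the 4 tumours, by paralogue group (x axis, 1 at the 3′ end) and cluster (panels). Points are single tumours, the dashed line is the floor of 6.17 and the dotted line the receptor median of 4.01. Points above the dashed line belong to Hoxc4, Hoxc6, Hoxc8, Hoxd8 and Hoxd10.

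Counts were small in every cluster. The Hoxc cluster had 2 of 9 members detected (22.2%) and Hoxd 2 of 8 (25%), while Hoxa had 0 of 9 and Hoxb 0 of 10. The highest mean in Hoxa was 5.72 (Hoxa6) and the highest in Hoxb 5.09 (Hoxb9). By place along the axis, 0 of 7 anterior members (paralogue groups 1 to 3), 3 of 14 central members (groups 4 to 8) and 1 of 15 posterior members (groups 9 to 13) were detected. The detected genes fell into 4 paralogue groups, 4, 6, 8 and 10, with 1 member each. With the floor at the 90th percentile 2 groups (6 and 8) were detected in more than 1 cluster, and with shared probe sets counted 1 group (4) was. Genes are not replicates and these counts are small, so the clusters and axial classes are described and not tested.

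Hoxc4, the 3′-most gene of its cluster, which patterns the neck and upper thorax, was detected on every array. It measured 7.40, 7.39, 7.38 and 6.95 in tumours 1 to 4 (mean 7.28 ± 0.22, SD, n = 4). Tumours 1 to 3 were alike within 0.023, and tumour 4 was lower by at least 0.43. It was the only member above the floor of every single array, which 34.2% of all genes passed. It was also the only one above the stricter floor of 7.14 set at the 99th percentile of receptor genes, which 25.3% passed.

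Hoxc6, which marks forelimb-level spinal cord and upper thoracic segments, measured 6.58, 7.32, 6.01 and 5.72 in tumours 1 to 4 (mean 6.41 ± 0.71, SD, n = 4). It was high in tumour 2 and low in tumours 3 and 4, where it lay under the floors of those arrays. Tumour 4 was not above its array's floor, so tumour 2 was at least 1.86-fold higher, taking that floor for tumour 4. The measured values of tumours 2 and 4 differed by 1.60 in log2 units, which is 3.04-fold. Between tumours 1 and 2, both above their floors, the difference (1 minus 2) was -0.75. Hoxc8, the next gene of the cluster and a determinant of thoracic vertebrae and of brachial motor neurons, measured 6.03, 7.10, 5.61 and 5.15 (mean 5.97 ± 0.83, SD, n = 4). Its mean was below the floor, but tumours 1 and 2 exceeded the floors of their own arrays. Tumour 2 was at least 1.59-fold higher than tumour 4 on the same basis. Their measured values differed by 1.95 in log2 units, which is 3.86-fold. The difference of tumours 1 and 2, both above their floors, was -1.06 (1 minus 2). Hoxc6 and Hoxc8 both ran, from high to low, in the order tumour 2, tumour 1, tumour 3, tumour 4. Hoxa3 had the same order, with a range of 0.067 and a mean below the floor, and over all genes 6.23% had it.

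This pair held the widest ranges of the family. The range over the 4 tumours reached 1 in 2 of 36 members, Hoxc6 and Hoxc8, against 2.74% of all genes. Over detected members it was 1 of 4, Hoxc6, against 4.26% of detected genes, and over undetected members 1 of 32, Hoxc8, against 1.7% of undetected genes. These ranges are of measured values, and in both genes tumours 3 and 4 were below the floors of their arrays. By measured range Hoxc8 ranked 54 and Hoxc6 ranked 98 of 22180 genes. The other 34 members had ranges of at most 0.62. The median range was 0.35 over all members and 0.37 over all genes. A range of at least 1 with the tumours in the same order was found in 54 genes of 22180 (0.243%). The pair was singled out for its values, so this count describes it and supports nothing. Without tumour 2 the ranges were 0.86 for Hoxc6 and 0.89 for Hoxc8, and the mean of Hoxc6 fell below the recomputed floor.

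Of the neighbours, Hoxc9 and Hoxc5 lay below the floor, where a difference between tumours could not be judged. Hoxc9, on the 5′ side and a determinant of thoracic motor neurons, measured 5.31, 5.33, 5.36 and 5.28 (mean 5.32 ± 0.03, SD, n = 4), with a range of 0.08, below the floor. Hoxc5, between Hoxc4 and Hoxc6, measured 3.99, 4.07, 3.83 and 4.44 (mean 4.08 ± 0.26), near the receptor median and with its highest value in tumour 4. Hoxc4, above the floor, was also lowest in tumour 4 (6.95), and tumours 1 to 3 were alike in it (7.38 to 7.40). The remaining Hoxc genes, Hoxc10 to Hoxc13, had means from 3.81 to 4.98 and ranges of at most 0.48. Hoxc13, a hair follicle factor, was highest in tumour 4 (5.24) and lowest in tumour 2 (4.76).

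**Figure D2:**
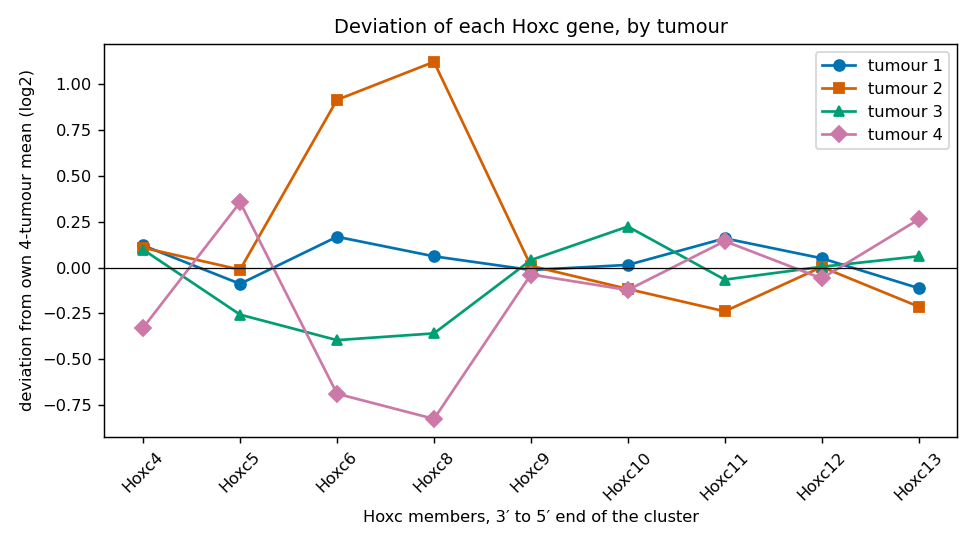
Deviation of each Hoxc gene from its own 4-tumour mean (y axis, log2 units), with genes in order from the 3′ to the 5′ end of the cluster (x axis) and 1 line per tumour. Tumour 2 lies highest and tumour 4 lowest at Hoxc6 and Hoxc8, and Hoxc9, below the floor, has a range of 0.08.

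The tumours were bulk tissue, in which fewer cells of a type and less RNA per cell cannot be told apart. Marker lists of 7 cell types were therefore set beside the pair, as the mean over all measured members in each tumour. Fibroblast markers (8 of 12 detected) stood at 6.98, 6.40, 6.73 and 6.30 in tumours 1 to 4. Dcn (decorin) ran from 6.17 in tumour 4 to 8.26 in tumour 1, Postn (periostin) from 7.57 in tumour 4 to 9.44 in tumour 1, and Thy1 from 6.12 in tumour 2 to 7.95 in tumour 3. Lum (3.88) and Pdgfra (4.37) of that list lay near the receptor median. Macrophage markers (8 of 10 detected) stood at 7.64, 7.67, 7.04 and 7.57, with Csf1r, the CSF1 receptor, from 5.64 in tumour 3 to 6.90 in tumour 1 and Lyz2, lysozyme, from 9.41 in tumour 3 to 10.49 in tumour 2. Schwann markers (2 of 7 detected) stood at 6.24, 5.83, 5.67 and 5.77, with Fabp7, a glial fatty acid binding protein, from 6.49 in tumour 3 to 9.54 in tumour 1. Sympathetic markers stood at 9.35, 9.08, 9.04 and 9.30, with Prph, peripherin, from 7.51 in tumour 4 to 9.32 in tumour 1, and by the median deviation tumour 4 (0.18) lay above tumour 1 (0.064). Of the single members, 8 of 12 fibroblast and 5 of 7 Schwann markers were highest in tumour 1. Highest in tumour 4 were 10 of 15 sympathetic markers. In tumour 2, where Hoxc6 and Hoxc8 were highest, 4 of 10 macrophage and 4 of 10 endothelial markers had their highest value. Above their own means in tumour 1 were 7368 of all 8989 detected and 4111 of all 13191 undetected genes. In tumour 2 these were 5464 and 5380 genes, and in tumour 4, 2910 and 9270. How many of all genes were highest in each tumour was not counted. Endothelial markers (2 of 10 detected) kept within 0.10, lymphocyte markers (1 of 9) within 0.22 and muscle markers (0 of 15) within 0.23. Over detected members alone the list means spanned 1.63 for Schwann markers (2 genes), 1.07 for fibroblast, 0.84 for lymphocyte (1 gene), 0.73 for macrophage, 0.30 for sympathetic and 0.21 for endothelial markers (2 genes). The mean of 0 of the 7 lists followed the order of Hoxc6 and Hoxc8. Over all genes 6.23% had that order, and 7 lists cannot tell 0 from this share. Macrophage markers were nearly tied in tumours 2 (7.67) and 1 (7.64) and lowest in tumour 3. By the median deviation tumour 1 (0.19) lay above tumour 2 (0.18). The part of macrophages in the result was not tested.

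**Figure D3:**
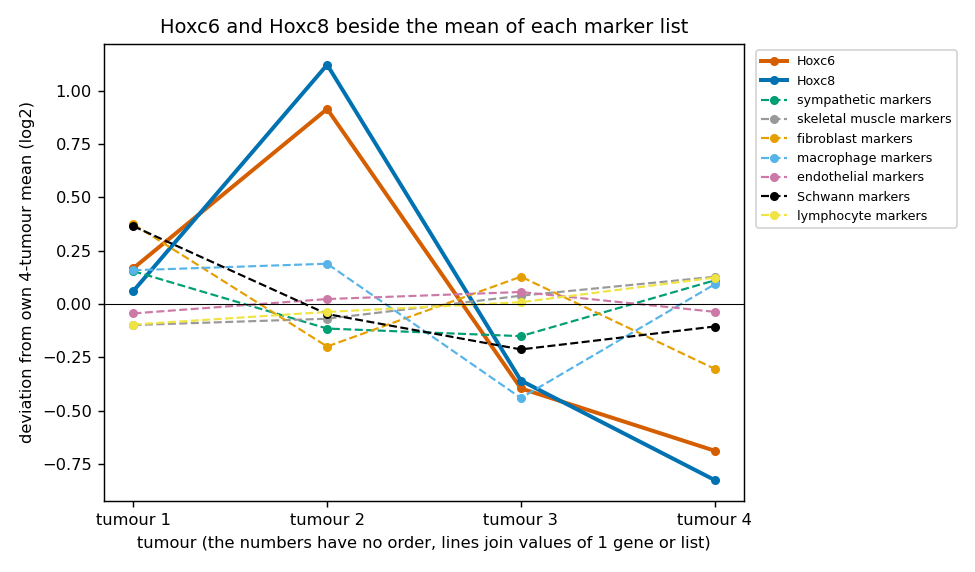
Deviation of Hoxc6, Hoxc8 and the mean of each of 7 marker lists from their own 4-tumour means (y axis, log2 units) in the 4 tumours (x axis). Hoxc6 and Hoxc8 span 1.60 and 1.95, the mean over all measured fibroblast markers 0.68, and over the 2 detected Schwann markers alone (not drawn) 1.63.

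Hoxd8 and Hoxd10 were the detected genes of the Hoxd cluster, and both lay close to the floor. Hoxd8, expressed in the trunk, measured 6.37, 6.23, 6.14 and 6.34 in tumours 1 to 4 (mean 6.27 ± 0.11, SD, n = 4), with a range of 0.23. Hoxd10, a determinant of lumbar motor neurons and of the limb, measured 6.10, 6.18, 5.98 and 6.50 (mean 6.19 ± 0.22, SD, n = 4), highest in tumour 4. Hoxd10 exceeded the floor by 0.025 and Hoxd8 by 0.10, less than or about the SD of each. Hoxd8 exceeded the floors of single arrays in tumours 1 and 2, and Hoxd10 in tumours 1, 2 and 4. Hoxd9, which lies between them, measured 4.52, 4.25, 4.07 and 4.34 (mean 4.29 ± 0.19, SD, n = 4), near the receptor median. Without tumour 1 neither Hoxd8 nor Hoxd10 exceeded the recomputed floor.

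A probe set listed with both Hoxd3 and Hoxd4 measured 7.28, 7.04, 7.21 and 7.41 (mean 7.23 ± 0.15, SD, n = 4), above the floors of all 4 arrays. Which of these neighbouring genes it reads cannot be told from the annotation. The probe set of Hoxd3 alone measured 5.02, 4.90, 4.59 and 4.96 (mean 4.87 ± 0.19), below the floor. Hoxd1, an anterior gene with a role in sensory neurons, measured 4.13 ± 0.17 (SD, n = 4). Hoxd11, Hoxd12 and Hoxd13, which shape limbs, digits and the urogenital tract, had means of 4.32, 5.03 and 4.30. All 8 Hoxd members were above their own means in tumour 4, by a median of 0.08. Over all genes 54.9% were, with 32.4% of detected genes (median -0.08) and 70.3% of undetected genes (median 0.08).

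The promoters of the detected genes are shown because their Hoxd neighbours differ in detection while lying side by side. RefSeq promoters of GRCm38.p6, 250 bases before to 50 after a transcription start, were given for 20 of the 36 members, 2 of them with 2 starts, so 22 promoters in all. Hoxc6 and Hoxc8 have no entry there. The promoters of Hoxc4 (chr15:103034145-103034444, plus strand), Hoxd8 (chr2:74704365-74704664, plus strand), Hoxd9 (chr2:74697513-74697812, plus strand) and Hoxd10 (chr2:74691641-74691940, plus strand) read as follows, 5′ to 3′, with capitals for matches to the motifs named after them.
Hoxc4: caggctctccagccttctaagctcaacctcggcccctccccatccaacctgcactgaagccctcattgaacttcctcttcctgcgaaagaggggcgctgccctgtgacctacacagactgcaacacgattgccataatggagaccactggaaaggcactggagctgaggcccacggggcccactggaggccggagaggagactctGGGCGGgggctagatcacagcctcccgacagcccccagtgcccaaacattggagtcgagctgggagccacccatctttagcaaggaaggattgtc
Hoxd8: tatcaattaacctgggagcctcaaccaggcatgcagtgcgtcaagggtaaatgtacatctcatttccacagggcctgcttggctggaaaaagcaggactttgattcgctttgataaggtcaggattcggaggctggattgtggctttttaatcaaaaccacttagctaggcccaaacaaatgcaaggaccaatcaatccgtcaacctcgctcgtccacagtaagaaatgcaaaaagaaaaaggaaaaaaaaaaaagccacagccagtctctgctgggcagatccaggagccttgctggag
Hoxd9: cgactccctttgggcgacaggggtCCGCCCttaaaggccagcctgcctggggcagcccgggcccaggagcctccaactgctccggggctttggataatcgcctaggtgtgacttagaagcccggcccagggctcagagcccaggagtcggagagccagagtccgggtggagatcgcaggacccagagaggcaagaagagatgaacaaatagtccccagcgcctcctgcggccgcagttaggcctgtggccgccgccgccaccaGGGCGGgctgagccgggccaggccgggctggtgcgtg
Hoxd10: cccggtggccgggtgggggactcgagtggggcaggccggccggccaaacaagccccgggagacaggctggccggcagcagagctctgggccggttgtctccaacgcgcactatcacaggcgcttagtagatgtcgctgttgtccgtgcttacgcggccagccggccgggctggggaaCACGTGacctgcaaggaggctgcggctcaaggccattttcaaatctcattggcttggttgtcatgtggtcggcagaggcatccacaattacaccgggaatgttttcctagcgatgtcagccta

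Motifs were searched on both strands. TATAAA is the core promoter box bound by TBP. GGGCGG is the box bound by Sp1. CACGTG is the E-box that MYC family proteins bind. TGATNNAT is the core bound by Hox and Pbx proteins together. No matches of different motifs overlapped in the 22 promoters. GGGCGG was found in 10 of 22 Hox promoters (45.5%) and 35.7% of all 32851 promoters of this length. CACGTG was found in 4 (18.2%, against 7.15%), TGATNNAT in 4 (18.2%, against 8.85%) and TATAAA in 3 (13.6%, against 13.6%). Of the promoters shown, Hoxc4 holds 1 GGGCGG match, Hoxd9 holds 2 and Hoxd10 holds 1 CACGTG, and Hoxd8 holds no match. These are matches of letters, not sites. Hox promoters held a median of 17 CpG dinucleotides, against 7 over all promoters. Among the detected genes, Hoxd8 had 6, Hoxc4 had 9 and Hoxd10 had 22, and Hoxd9 had 20.

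The anterior members, which pattern hindbrain and pharyngeal arches, were all under the floor. Hoxa2, a factor of the second pharyngeal arch, measured 4.74 ± 0.10, Hoxa3, needed for thymus and parathyroid, 4.24 ± 0.03 and Hoxb1, a hindbrain gene, 4.44 ± 0.17 (SD, n = 4). Hoxb2 was at 3.96 ± 0.11 and Hoxb3 at 5.05 ± 0.15 (SD, n = 4), the latter from 4.86 in tumour 2 to 5.24 in tumour 4. Central members of Hoxa and Hoxb were also under it. Hoxa6 came nearest, with 5.98, 5.74, 5.47 and 5.68 in tumours 1 to 4 (mean 5.72 ± 0.21, SD, n = 4), and exceeded the floor of the array in tumour 1. Hoxa4 measured 4.60 ± 0.20, Hoxa5, a lung and thoracic gene, 4.03 ± 0.09 and Hoxa7 4.44 ± 0.24 (SD, n = 4). Hoxb4, known from blood stem cells, measured 4.91 ± 0.05 and Hoxb6 to Hoxb8 had means from 4.18 to 4.34. Hoxb5, which acts in crest of the gut, was the member with more than 1 probe set, and the brighter of them measured 5.01 ± 0.13 (SD, n = 4).

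The posterior members were under the floor apart from Hoxd10. Hoxa9, known from leukaemia, measured 4.61 ± 0.14, Hoxa10, a uterine and lumbar gene, 4.22 ± 0.06 and Hoxa13, of digits and hindgut, 4.87 ± 0.14 (SD, n = 4). Hoxb9, a thoracic gene, measured 5.15, 4.98, 5.09 and 5.17 (mean 5.09 ± 0.08, SD, n = 4), and Hoxb13, of the tail and prostate, 4.51 ± 0.16. Over the 32 undetected members the median range was 0.34, as it was over all undetected genes (0.34). Detected members deviated from their own means by medians of 0.11, 0.05, -0.17 and -0.13 in tumours 1 to 4, where all detected genes did so by 0.12, 0.04, -0.09 and -0.08.

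RNAs transcribed inside the clusters were under the floor as well, which 40.5% of all genes exceeded. Of 6 measured, 0 were detected, among them Hotair, the antisense RNA of the Hoxc cluster (5.20 ± 0.25, SD, n = 4), and Hoxaas3, antisense in Hoxa (5.22 ± 0.19). The clusters also encode the miR-10 and miR-196 families, which repress Hox messages. They are shown because the members of each family share a seed and differ in 1 base. Of their precursors only Mir10b, Mir196a-1 and Mir196a-2 were measured alone, so the members of a pair were not compared. The sequences are RefSeq's on GRCm38.p6, 5′ to 3′, with the seed (bases 2 to 8) in capitals: miR-10a lies at chr11:96317186-96317208, miR-10b at chr2:74726074-74726096 and miR-196b at chr6:52230129-52230150, the last on the minus strand, and miR-196a is encoded both in Hoxb (chr11:96265187-96265208) and in Hoxc (chr15:102973365-102973386).
miR-10a-5p: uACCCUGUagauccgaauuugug
miR-10b-5p: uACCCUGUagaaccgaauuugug
miR-196a-5p: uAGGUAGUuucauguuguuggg
miR-196b-5p: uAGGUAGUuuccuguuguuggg
Counted from the 5′ end, miR-10a and miR-10b differ by U12A and miR-196a and miR-196b by A12C. Mir10b measured 3.27 ± 0.13 and Mir196a-2 4.05 ± 0.01 (SD, n = 4). Mir196a-1, of the Hoxb cluster, was highest in tumour 1 (4.71) and lay between 3.36 and 3.89 elsewhere. How well such probe sets read a mature miRNA was not tested.

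Cofactors of Hox proteins were detected in part. Of the TALE homeobox proteins, which bind DNA with them, 5 of 10 were detected, against 40.5% of all genes. Meis1 measured 9.77, 9.54, 9.41 and 9.71 in tumours 1 to 4 (mean 9.61 ± 0.17, SD, n = 4). Pknox1 was at 7.24 ± 0.28, Pbx3 at 6.51 ± 0.21, Tgif1 at 6.43 ± 0.26 and Meis3 at 6.37 ± 0.12 (SD, n = 4). Tgif1, a repressor of the same superclass, was highest in tumour 2 (6.77) and lowest in tumour 4 (6.15), with the order of Hoxc6 and Hoxc8. That order was found in 6.23% of all genes, the Polycomb gene Rnf2 among them.

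Signals and factors that switch on Hox genes in the embryo were mostly under the floor, which 40.5% of all genes exceeded. Of 13 measured, 2 were detected, Gdf11, a TGF-beta ligand that promotes posterior Hox expression (7.70 ± 0.26), and Rara, a retinoic acid receptor (6.25 ± 0.08, SD, n = 4). Cdx1, Cdx2 and Cdx4, caudal factors that activate trunk Hox genes, lay at 4.33, 4.33 and 4.43, and Aldh1a2, the embryonic retinoic acid synthase, at 4.73. Of 6 genes that convert or carry retinoic acid or its precursors, Dhrs3 (6.20 ± 0.09) and Crabp1 (7.38 ± 0.61, SD, n = 4) were detected. Crabp1, a retinoic acid binding protein, ran from 6.60 in tumour 3 to 8.08 in tumour 2.

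The chromatin machinery of the clusters was detected nearly in full. Of the Polycomb genes, which keep Hox clusters silent, and the demethylases that oppose them, 13 of 16 were detected, against 40.5% of all genes. Ezh2, the H3K27 methyltransferase, ran from 8.83 in tumour 3 to 9.49 in tumour 2, Rnf2, an E3 ligase, from 8.70 in tumour 4 to 9.34 in tumour 2, and Suz12 from 8.31 in tumour 4 to 8.75 in tumour 1. Cbx2, a reader of that mark, was nearly constant at 7.77 ± 0.03, and Kdm6b, a demethylase, at 8.83 ± 0.08 (SD, n = 4). Of the Trithorax and MLL genes, which keep them active, 11 of 11 were detected, with Dpy30 from 6.88 in tumour 4 to 7.46 in tumour 1 and Kmt2b at 7.61 ± 0.05 (SD, n = 4). Psip1, an MLL cofactor, was at 8.07 ± 0.21, Dot1l, the H3K79 methyltransferase, at 8.63 ± 0.20 and Wdr5, an MLL subunit, at 7.63 ± 0.11 (SD, n = 4). Detected Polycomb list members deviated from their own means by medians of 0.12, 0.08, -0.12 and -0.06 in tumours 1 to 4. For the Trithorax list these were 0.18, 0.09, -0.13 and -0.07, and for all detected genes 0.12, 0.04, -0.09 and -0.08. The range reached 1 in 0 of the 13 and 0 of the 11 detected genes, against 4.26% of all detected genes. Lists this short cannot tell 0 from that share.

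Genes near the ends of the clusters were detected in 9 of 18 cases, against 40.5% of all genes. These included Mtx2, a mitochondrial import gene beside Hoxd (9.01 ± 0.33), and Lnpk beyond the other end of Hoxd (6.71 ± 0.21). Also detected were Cbx5, the heterochromatin protein near Hoxc (9.78 ± 0.27), and Cbx1 near Hoxb (8.19 ± 0.09, SD, n = 4). Evx1 and Evx2, homeobox genes at the 5′ ends of Hoxa and Hoxd, were at 4.43 and 4.78. Of 14 measured members of a list of rostral and head factors 3 were detected, Emx2 (6.82 ± 0.62), Otx1 (6.29 ± 0.11) and Lmx1b (6.25 ± 0.14, SD, n = 4). The list does not mark head tissue alone, as Emx2 also acts in urogenital development.

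**Figure D4:**
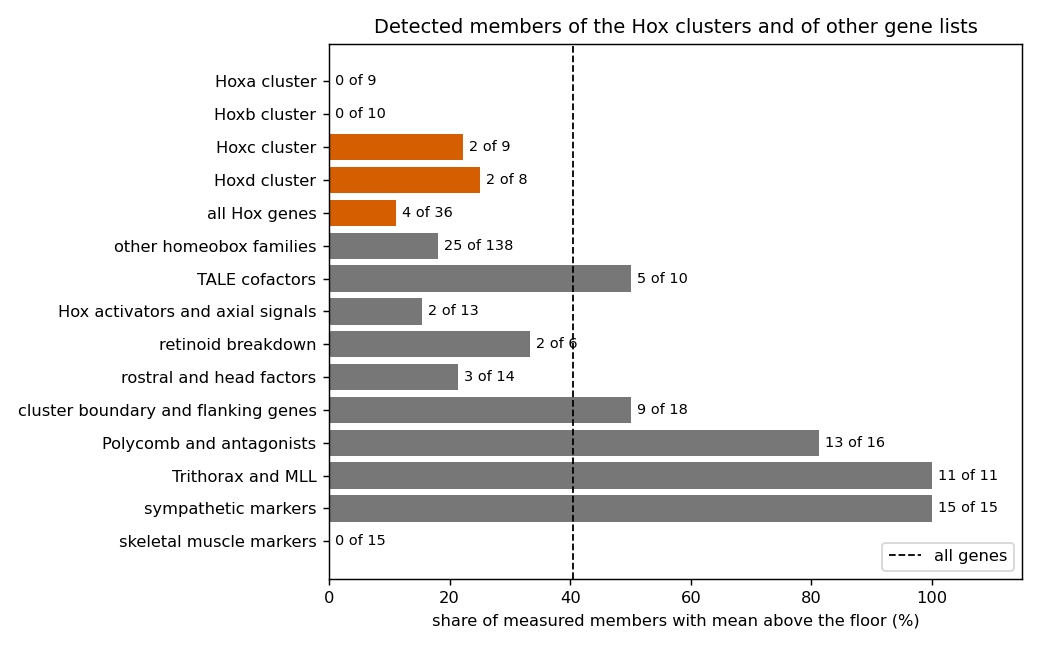
Share of measured members with a 4-tumour mean above the floor (x axis, percent) for each Hox cluster, for all Hox genes and for other gene lists (bars, counts beside them). The dashed line is the 40.5% of all genes, above the 11.1% of Hox genes.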

How the data were processed

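Total RNA of 4 tumours was hybridised to 1-colour Affymetrix arrays. The deposited table holds RMA values of 41345 probe sets, made by the authors with RMA and Partek per the submitters' processing notes, with no versions or settings. The deposited values are treated as log2, although the log base is not stated, and no source used here gives the build. Any 2 arrays held identical values at 0.215% of probe sets or fewer, and each counts as 1 sample. The 23521 probe sets listed with a single gene were kept. RefSeq GRCm38.p6 supplied current symbols for 23328 of them, and the probe set with the highest mean represented each gene. Precision is limited by the number of arrays. Means, SDs, ranges and deviations were computed with pandas 2.3.3 and Python 3.11.15. The calls were also run on simulated data with genes set well away from the floor, which says nothing on calls near it. Levels follow the authors' normalization, which can shift low values. Array medians of the deposited values were 5.15, 5.19, 5.25 and 5.29 in tumours 1 to 4.

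The members and gene lists were chosen with earlier results of these data known. Named genes were all detected Hox genes, those with a range of at least 1, the 2 per cluster nearest below the floor, and in every other list up to 3 detected genes with the widest range and 2 with the narrowest (all where 3 or fewer were detected), some of which are given only in their list's counts. Other Hox genes and list members are named to account for all members and were chosen after their values were seen. Alternatives were the floor, the probe set, the normalization, the range and leaving out each tumour.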

Additional observations from a re-analysis of the deposited data

Results flagged for a closer look

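In 2 of 36 Hox genes and 1 of 50 other named genes a single tumour stood apart from the others, with a gap to its neighbour past the 95% critical value of Dixon's ratio for 4 samples, which chance alone passes in about 5% of groups. Hoxc4 was lower in tumour 4 (6.95, against 7.38 to 7.40, ratio 0.949). Hoxb5, below the floor, was lower in tumour 1 (4.81, against 5.06 to 5.09, ratio 0.895), while its other, dimmer probe set was highest in tumour 1 (4.99, against 4.55 to 4.85). Hnrnpa2b1, an RNA-binding protein gene outside the Hoxa cluster, was lower in tumour 4 (9.42, against 9.56 to 9.58, ratio 0.890).

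A signal above the floor came from a probe set that was left out because it is listed with both Hoxd3 and Hoxd4, with a mean of 7.23.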

How the results depend on the processing

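No paired analysis was possible because all 4 tumours form 1 group. The floor decided the counts. With a stricter floor (99th percentile), detected Hox genes numbered 1 in all (1 in Hoxc, 0 in Hoxd, 1 central, 0 posterior, 1 paralogue group, 0 variable), and 12 other homeobox genes passed. With it at the 90th percentile 6 Hox genes passed (1 in Hoxa, 5 central, 2 variable). With it at the receptor median 34 passed (9 in Hoxa, 9 in Hoxb, 8 in Hoxc, 8 in Hoxd, 6 anterior, 14 central, 14 posterior, 13 paralogue groups, 2 variable), with 89 pathway genes (45 as reported) and 132 other homeobox genes. Of all genes, 25.3% passed the 99th percentile floor, 48.5% the 90th and 86.1% the receptor median. Counting shared probe sets for each gene listed gave 6 Hox genes, 4 of them in Hoxd and 1 anterior. With no floor 2 members were variable. With array floors at that stricter level 0 members passed on every array.

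Leaving out each tumour in turn gave 2 to 4 detected Hox genes (1 to 3 in Hoxc, 0 to 2 in Hoxd, 0 to 1 posterior, 2 to 4 paralogue groups), 1 to 2 detected in every tumour and 0 to 2 variable. The distance of the mean from the floor turned for Hoxc6 (-0.096 without tumour 2), Hoxd8 (-0.076 without tumour 1), Hoxd10 (-0.090, -0.0058 and -0.025 without tumours 1, 2 and 4) and Hoxc8 (0.14 without tumour 4). At the 99th percentile floor it was -0.73 for Hoxc6, -0.87 for Hoxd8 and -0.95 for Hoxd10, at the 90th 0.30 for Hoxc8 and 0.041 for Hoxa6, and at the receptor median 1.97 and 1.71 for these.

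Over these omissions the distance ran from -0.096 to 0.53 for Hoxc6, -0.60 to 0.14 for Hoxc8, -0.076 to 0.18 for Hoxd8 and -0.090 to 0.13 for Hoxd10. The median deviation of detected members ran from -0.025 to 0.12 in tumour 1 and from 0.031 to 0.56 in tumour 2. In tumour 1 it was -0.012 after subtracting that of all detected genes.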

Other observations

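Among homeobox genes outside the clusters, the range reached 1 in 3 of the 25 detected ones (12%), against 4.26% of detected genes. Pou3f3, a POU factor of the nervous system, measured 6.77, 7.93, 8.46 and 8.95 in tumours 1 to 4. Zfhx4, a zinc finger homeobox factor, measured 6.08, 5.84, 6.32 and 7.57, highest in tumour 4. Pou6f1, a POU factor of the brain, was the most even of the 25 detected ones, with a range of 0.063. Emx2, a factor of forebrain and urogenital development, measured 7.23, 7.39, 6.62 and 6.04. Of all members of the lists outside the Hox genes, Emx2 was the one with a range of at least 1 and the tumours in the order of Hoxc6 and Hoxc8, which 0.243% of all genes had. It was singled out after its values were seen.

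A probe set listed with Mira, a non-coding RNA of the Hoxa cluster, and Hoxa7 was highest in tumour 1 (6.29) and lay between 4.99 and 5.27 elsewhere, and the probe set of Hoxa7 alone was also highest in tumour 1 (4.78, against 4.24 to 4.45).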
